A study of Mus musculus with 21 samples.

Results

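Fibroblast growth factor (FGF) pathway genes were read on 21 arrays of mouse intestinal organoids, with 10 genes followed by name. They were the ligands Fgf18, Fgf9, Fgf15 and Fgf20, the receptors Fgfr1, Fgfr2, Fgfr3 and Fgfr4, and the feedback inhibitors Spry2 and Spry4. Every non-control probe whose gene name was one of these was taken, which gave 18 probes. The group was put together because Fgf18 was higher with compound 6 on these same arrays, so Fgf18 was selected on its compound 6 values, which are given below as a description with no test. Of the 10 genes, 8 had a probe well above background on at least 3 arrays, and they were tested among 21370 genes in all.

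The organoids were grown from small intestinal crypts of mice (chimeras from KH2 embryonic stem cells crossed with C57/BL6-J, age not given in the labels) with a transgene for human, myc-tagged ΔN89β-catenin, a form that lacks the N-terminus through which β-catenin is marked for breakdown. A CMV minimal promoter with tetracycline operator sequences drove it, and M2-rtTA came from the endogenous ROSA26 promoter, so doxycycline switched the transgene on. Vehicle organoids stayed in doxycycline (7 arrays, letters A to G). Compound 2 and compound 9 were each given at 2 µM for 24 h in the presence of doxycycline (3 arrays each, letters A to C). Compound 6 was given at the same dose and time (4 arrays, letters D to G). In the last group doxycycline was taken away for 24 h and vehicle was given (4 arrays, letters D to G). All groups carried the transgene and had been started in doxycycline, and no group without the transgene was used here. Per the series' design text, all 3 compounds come from the same trisubstituted pyridine series as close analogues, and each is an inhibitor of Mediator's kinases CDK8 and CDK19. The culture medium in the labels held epidermal growth factor, Noggin and R-spondin 1, and no FGF is named in it. The labels do not say whether letters were separate mice or cultures, so a p-value here reflects only how far these arrays scatter, which may be technical.

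FGF ligands are secreted proteins that bind receptor tyrosine kinases on the cell surface, with heparan sulfate chains as co-receptors. A bound receptor passes its signal through adaptor proteins to the RAS, RAF, MEK and ERK cascade, and active ERK raises ETS factors such as Etv4 and Etv5 together with inhibitors such as the Sprouty and DUSP proteins, which dampen the pathway again. Fgf18 and Fgf9 belong to the paracrine ligands. Fgf15 is the endocrine ligand of the ileum, made under the bile acid receptor FXR, and acts on Fgfr4 in the liver, where it lowers bile acid synthesis.

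Each value below is a log2 ratio of sample RNA (Cy3) over Universal Mouse Reference RNA (Cy5) after background correction and loess normalization, so 0 stands for the level in the reference RNA, and levels of different probes are not set against each other. A change is the difference of 2 groups on this scale with its standard error (SE), from 1 limma model of all arrays with group and letter set (A to C or D to G). Each group was set against vehicle arrays of its own letters. A gene passed at a Benjamini-Hochberg adjusted p under 0.05 over all 21370 genes. Same-letter arrays deviated together, but this model holds no term for the single letter. The fit with the letter as a replicate block is therefore given where it alters the call of a member. The letter sets were scanned on 2 different days and scanners, so set, day and scanner cannot be told apart, and comparisons between compound 6 and compounds 2 or 9 are differences of 2 changes against vehicle.

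Between 42.6% and 51.9% of spots were well above background in the sample channel. The check on the switched β-catenin rests on its targets, because it is not known here whether the mouse Ctnnb1 probe reads the human transgene. That probe moved by between -0.04 and 0.11 against vehicle in the 4 groups, and none of these changes passed. Axin2, a direct Wnt target, fell by 1.36 ± 0.22 after doxycycline was withdrawn (adjusted p = 5.47e-04), and by 1.55 without vehicle F. One vehicle array stood apart: Lgr5, a stem cell gene and Wnt target, lay at 4.24, 4.16 and 3.71 on vehicle D, E and G but at 1.00 on vehicle F, near the 0.72 to 0.80 of the withdrawn arrays. Vehicle A to C were also low, at 0.23 to 0.69. For members and other genes whose vehicle F array lay apart, the change is given with and without it, except for Dusp6. All 12 markers of intestinal epithelium were well above background on all 21 arrays. Of the fibroblast markers, Pdgfra, Foxl1, Lum, Twist1 and Foxf1a were above background on 0 arrays, while 7 or 8 of 13 were above it on any array. These are bulk samples, in which fewer cells of a type and less RNA per cell cannot be told apart.

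The probes carry the reading, so the ones on which results turn are shown first. The 2 Fgf18 probes (60 bases each, chr11:33017440-33017499 and chr11:33017474-33017533, mm9, minus strand) overlap by 26 bases and so are not independent readings of the gene. The stretch that both share is the following, read 5′ to 3′.
Fgf18 shared stretch: acgaggaaactgcgagaaaccaaagt
Fgfr1, Fgfr3 and Fgfr4 each have a second probe away from their brightest one, and these second probes gave smaller changes than the brightest ones after withdrawal and with compound 6, as described below. They sit at chr8:26684061-26684120, chr5:34077856-34078090 and chr13:55269212-55269271 (mm9, plus strand), and the Fgfr3 one covers 235 bases of genome with 60 bases of probe, so it does not match 1 unbroken genomic stretch.
Fgfr1 probe 2: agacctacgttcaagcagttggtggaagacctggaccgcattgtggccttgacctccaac
Fgfr3 probe 2: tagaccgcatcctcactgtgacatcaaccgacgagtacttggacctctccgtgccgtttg
Fgfr4 probe 2: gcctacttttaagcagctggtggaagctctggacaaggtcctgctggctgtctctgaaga
The longest run of identical bases between any 2 of these probes was 9, between Fgfr1 and Fgfr4. No exon or UTR annotation of mm9 was used, so where a probe lies within its transcript is not stated. All 10 members matched a RefSeq gene of the same symbol through the accession in the scanner files.

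The promoter of Fgf18 is shown because this gene moved over the widest range of all members. Of the 10 members, 6 were matched among the 32851 promoters of RefSeq's promoter table (GRCm38.p6) that were used here. Members without a match here may still be in that table. The 250 bases before the Fgf18 start (chr11:33147401-33147650, minus strand) follow 5′ to 3′, with each CG pair in capitals.
Fgf18 promoter: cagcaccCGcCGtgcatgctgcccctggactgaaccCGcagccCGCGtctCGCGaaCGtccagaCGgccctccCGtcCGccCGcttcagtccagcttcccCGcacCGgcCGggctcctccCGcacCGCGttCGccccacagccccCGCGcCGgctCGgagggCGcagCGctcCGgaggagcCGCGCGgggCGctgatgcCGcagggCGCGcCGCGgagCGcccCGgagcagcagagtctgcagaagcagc
It holds 37 CG pairs against a median of 6 over 32851 promoters of the same length, and 2.2% of them hold as many. Its GC content is 77.2%, against a median of 52.4%. The CG pairs of the other matched members numbered 2 (Fgfr2), 11 (Fgf9), 15 (Fgfr4), 23 (Spry2), and 19 and 24 at the 2 Fgfr3 starts. The motifs of 4 kinds were searched on both strands and were chosen after the expression values were known. No TCF/LEF word (CTTTGAA, its variant CTTTGAT or its variant CTTTGTT, held by 12% of the 32851 promoters), RUNX word (TGTGGT, 14%), antioxidant response element (TGACNNNGC, 10.2%) or ETS word (CCGGAA, 12%) occurs in these 250 bases of Fgf18. Among the other members an antioxidant response element match begins 53 bases before 1 of the Fgfr3 starts and 64 bases before the Fgf9 start, and an ETS match 178 bases before the Fgfr4 start. A match is a description of letters and not a site.

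Counted over the 8 measured members, doxycycline withdrawal raised 1 (Fgfr3) and lowered 1 (Fgfr4), where 20.7% of all genes passed in either direction. Compound 2 raised 2 (Fgf18 and Fgfr2), against 5.29% of all genes. Compound 6 raised 2 (Fgfr3 and Fgfr1) and lowered 1 (Fgfr4) of the 7 measured members besides Fgf18, against 24.8% of all genes, and nothing is read from that share. With compound 9, 0 of the 8 members and 0% of all genes passed in limma, with 251 genes at an unadjusted p under 0.05. The median change of the 8 members was 0.08 after withdrawal, 0.11 with compound 2, 0.04 with compound 6 and 0.01 with compound 9. A fit with no set term, which sets each group against all 7 vehicle arrays, ended the Fgf18 call with compound 2 (0.74, adjusted p = 0.0647), the Fgfr4 call for withdrawal (-0.84, adjusted p = 0.0542) and the Fgfr3 calls for withdrawal (0.09, adjusted p = 0.797) and compound 6 (0.06, adjusted p = 0.825). The same fit added calls against vehicle for Fgfr3 and Fgfr4 with compound 2, and for Fgf18 and Fgfr1 after withdrawal.

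**Figure D1:**
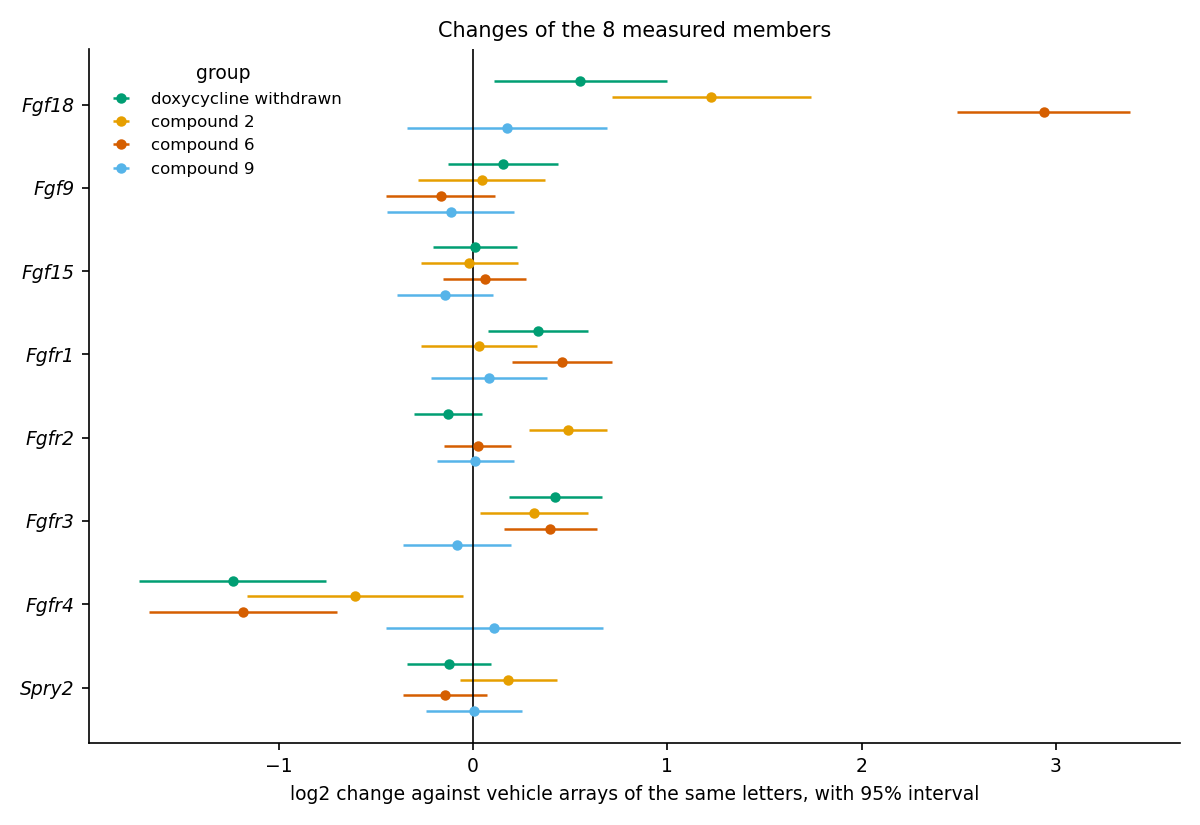
Log2 changes (horizontal axis) of the 8 measured members against vehicle arrays of the same letters, with 95% intervals; colours mark the 4 groups. Fgf18 reaches 2.94 with compound 6 and 1.23 with compound 2, Fgfr4 lies at -1.24 and -1.18 with withdrawal and compound 6, and the intervals of compound 9 include 0 for all 8.

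Fgf18 was the member with the largest change, and its order over the groups was compound 6, then compound 2, then withdrawal, then compound 9. On vehicle arrays D to G it lay at -0.57, -0.88, 0.00 and -0.51, and with compound 6 at 2.19, 2.12, 2.83 and 2.65. The lowest compound 6 array was above the highest vehicle array, and all 4 letters moved upward, by 2.76 to 3.16. The mean difference was 2.94 ± 0.21 (SE), 7.66-fold, or 3.103 without vehicle F, and this is the difference on which the gene was chosen. The mean Cy3 intensity was 1226 with compound 6 and 173 with vehicle D to G, over a local background of 33.5 and 35.3.

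**Figure D2:**
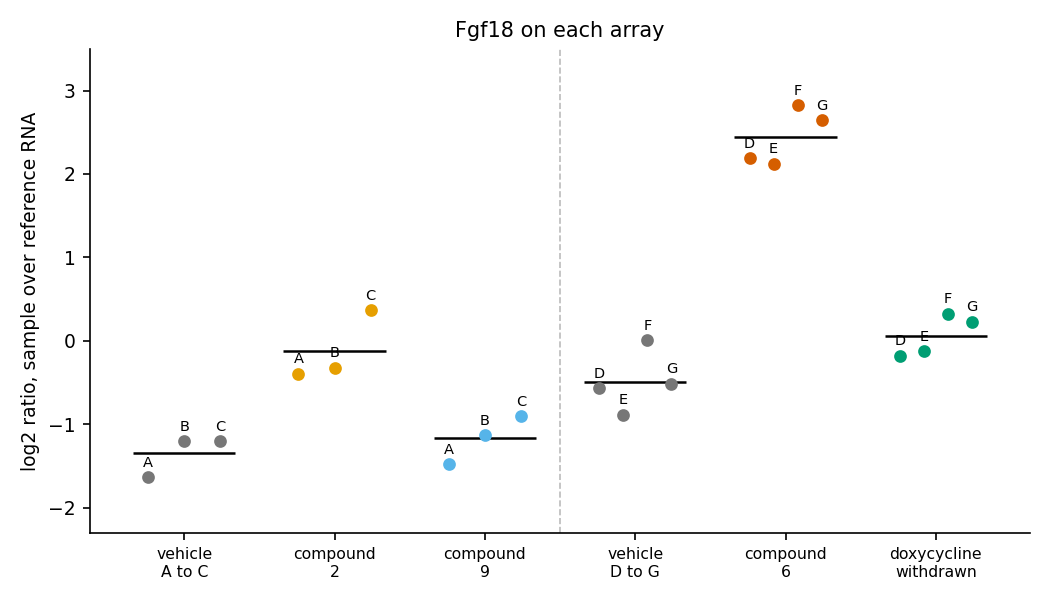
Log2 ratio of Fgf18 over reference RNA (vertical axis) on each of the 21 arrays, by group, with letters beside the points and a line at each group mean; the dashed line parts the letter sets. The 4 compound 6 arrays lie between 2.12 and 2.83, and no other array is above 0.36.

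The compound 2 arrays and their vehicle arrays were not used to choose the gene. Fgf18 lay at -1.63, -1.20 and -1.20 on vehicle A to C and at -0.40, -0.32 and 0.36 with compound 2. The groups did not overlap and all 3 letters moved upward. The rise was 1.23 ± 0.24, 2.34-fold (adjusted p = 0.00571), and it was 1.06 on the slide of letters A and B and 1.57 on the slide of letter C. The mean Cy3 intensity was 218.3 with compound 2 and 85.2 on vehicle A to C, over a background of 39 and 37. Over the 17 alternative fits the rise ran from 0.74 to 1.81, so its size depends on the processing. How far the offset of 50 added to the intensities lowers it was not tested. Compound 9 arrays lay at -1.48, -1.13 and -0.90, overlapping their vehicle arrays. The difference of 0.17 ± 0.24 had an interval of -0.34 to 0.69, so a rise of the size seen with compound 2 lies outside it.

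The withdrawal comparison shares vehicle D to G with the compound 6 values on which Fgf18 was chosen, so its p-values are not independent of that choice. After doxycycline was withdrawn, Fgf18 lay at -0.18, -0.13, 0.32 and 0.23. All 4 letters were above their vehicle array, but the groups overlapped through vehicle F at 0.00. The change was 0.55 ± 0.21 and did not pass (adjusted p = 0.0711). It was under the threshold with the letter as a replicate block (adjusted p = 3.24e-04), without vehicle F (0.72, adjusted p = 0.0121) and without all letter F arrays (0.63, adjusted p = 0.0286). The second, overlapping Fgf18 probe gave 0.41 for withdrawal, 1.09 for compound 2, 2.73 for compound 6 and 0.03 for compound 9. Vehicle D to G averaged -0.49 ± 0.37 (SD, n = 4) and vehicle A to C -1.35 ± 0.25 (SD, n = 3), a gap that cannot be told apart from scan day and scanner.

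Fgf9, the second paracrine ligand, did not pass in any comparison. It lay between 0.75 and 1.47 on the 7 vehicle arrays, and its change against vehicle was 0.16 ± 0.13 after withdrawal, 0.05 ± 0.16 with compound 2, -0.17 ± 0.13 with compound 6 and -0.11 ± 0.16 with compound 9. Between compound 6 and withdrawal it differed by -0.32 ± 0.13, which passed only with the letter as a replicate block (adjusted p = 0.12 without it and 0.0168 with it). Fgf15 was well above background on 5 of 21 arrays, all of letters A to C: 2 vehicle, 2 compound 2 and 1 compound 9. On letters D to G it was above background on 0 arrays, so its changes there, 0.01 after withdrawal and 0.06 with compound 6, compare background with background. Of 8 measured genes around bile acids and FXR, 2 rose after withdrawal and 1 with compound 6, and the others did not pass. Of all genes, 7.3% rose after withdrawal and 11.4% with compound 6. The median change of the 8 was 0.15 after withdrawal and -0.01 with compound 6. Nr1h4 (the gene of FXR itself) rose by 0.37 ± 0.10 after withdrawal (adjusted p = 0.0126) and by 0.44 ± 0.10 with compound 6 (adjusted p = 0.00278). Ostb, a bile acid exporter subunit, rose by 0.47 ± 0.15 after withdrawal (adjusted p = 0.0275).

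Fgf20 was well above background on 1 array, compound 6 F, by its first probe and on 0 by its second, so it was not tested. The compound 6 arrays lay at 0.16, 0.24, 0.48 and 0.19 on the first probe and vehicle D to G at -0.10, -0.08, -0.02 and 0.05. The second probe, which shares 28 genomic positions with the first, lay at -0.04 to 0.13 and -0.10 to 0.09 in the same groups. Spry4 was not well above background on any array.

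Among the receptors, Fgfr4 had the largest changes. On vehicle D to G it lay at 2.24, 2.22, 1.29 and 2.18, with vehicle F the low one. The withdrawn arrays lay at 1.01, 0.65, 0.72 and 0.61 and the compound 6 arrays at 0.72, 0.79, 0.64 and 1.06. All 8 of these were below every vehicle array of their letters. Fgfr4 fell by 1.24 ± 0.23 after withdrawal (adjusted p = 0.00149) and by 1.18 ± 0.23 with compound 6 (adjusted p = 0.00117). Without vehicle F the differences were -1.47 and -1.41. Within slides, the differences were -1.15 and -1.42 for withdrawal and -1.05, -1.29 and -1.54 for compound 6.

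With compound 2 Fgfr4 lay at 0.15, 0.57 and 0.65, below vehicle A to C at 0.84, 1.42 and 0.92. The difference was -0.61 ± 0.27 and did not pass in the main fit (adjusted p = 0.222). It passed with the letter as a replicate block (adjusted p = 0.0427) and with no set term (-1.13, adjusted p = 0.0169). With compound 9 Fgfr4 lay at 0.81, 1.86 and 0.84, a difference of 0.11 ± 0.27. The mean Cy3 intensity of this probe ran from 60.2 with compound 2 to 182.5 on vehicle D to G, over a background of 28.8 to 41, so the lower values lie close to background. The second Fgfr4 probe, printed above, gave -0.20, -0.32, -0.27 and -0.05 in withdrawal and compounds 2, 6 and 9. That probe was well above background on 3 of 4 vehicle D to G arrays, on 1 of 4 compound 6 arrays and on 1 of 4 withdrawn arrays.

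Fgfr3 rose after withdrawal and with compound 6. It lay at 1.49, 1.70, 1.50 and 1.46 on vehicle D to G, at 2.00, 2.01, 1.88 and 1.96 after withdrawal and at 1.86, 2.09, 1.82 and 1.97 with compound 6. Neither group overlapped its vehicle arrays. The rise was 0.42 ± 0.11 (adjusted p = 0.0133) after withdrawal and 0.40 ± 0.11 (adjusted p = 0.0158) with compound 6, and within slides it ran from 0.26 to 0.46 and from 0.33 to 0.37. With compound 2 the difference was 0.32 ± 0.13, upward in 3 of 3 letters, and did not pass in the main fit (adjusted p = 0.198). It passed with the letter as a replicate block (adjusted p = 0.00449) and with no set term (0.76, adjusted p = 0.0165). The second probe, printed above, gave 0.04 for withdrawal, 0.04 for compound 6 and 0.31 for compound 2. With the mean of both probes in place of the brightest, the changes were 0.23 and 0.22 and did not pass (adjusted p = 0.0754 and 0.0806), and without compound 6 E the compound 6 change was 0.35 (adjusted p = 0.0528). The third Fgfr3 probe was not above background on any array.

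Fgfr2 rose with compound 2. Its 3 arrays lay at 0.68, 0.53 and 0.56 and vehicle A to C at 0.06, -0.02 and 0.25, with no overlap. The rise was 0.49 ± 0.10 (adjusted p = 0.00484), with 0.58 and 0.31 on the 2 slides, and the second probe, which shares 42 genomic positions with the first, gave 0.61. In the other groups the change was -0.13 ± 0.08 after withdrawal, 0.02 ± 0.08 with compound 6 and 0.01 ± 0.10 with compound 9, none of which passed.

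Fgfr1 rose with compound 6 on its brightest probe. The compound 6 arrays lay at -0.18, -0.42, 0.01 and -0.47 and vehicle D to G at -0.75, -0.82, -0.41 and -0.90, and the groups overlapped through vehicle F. The rise was 0.46 ± 0.12 (adjusted p = 0.0108), upward in 4 of 4 letters, and 0.56 without vehicle F. In a fit of only these arrays it did not pass (adjusted p = 0.0595). After withdrawal the difference was 0.34 ± 0.12 (adjusted p = 0.0596), and it passed with the letter as a replicate block (adjusted p = 0.00269) and without vehicle F (0.44, adjusted p = 0.00774). The probe printed above gave -0.01 with compound 6 and the third probe 0.21. The 3 Fgfr1 probes cover different positions of 1 gene and gave different changes.

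**Figure D3:**
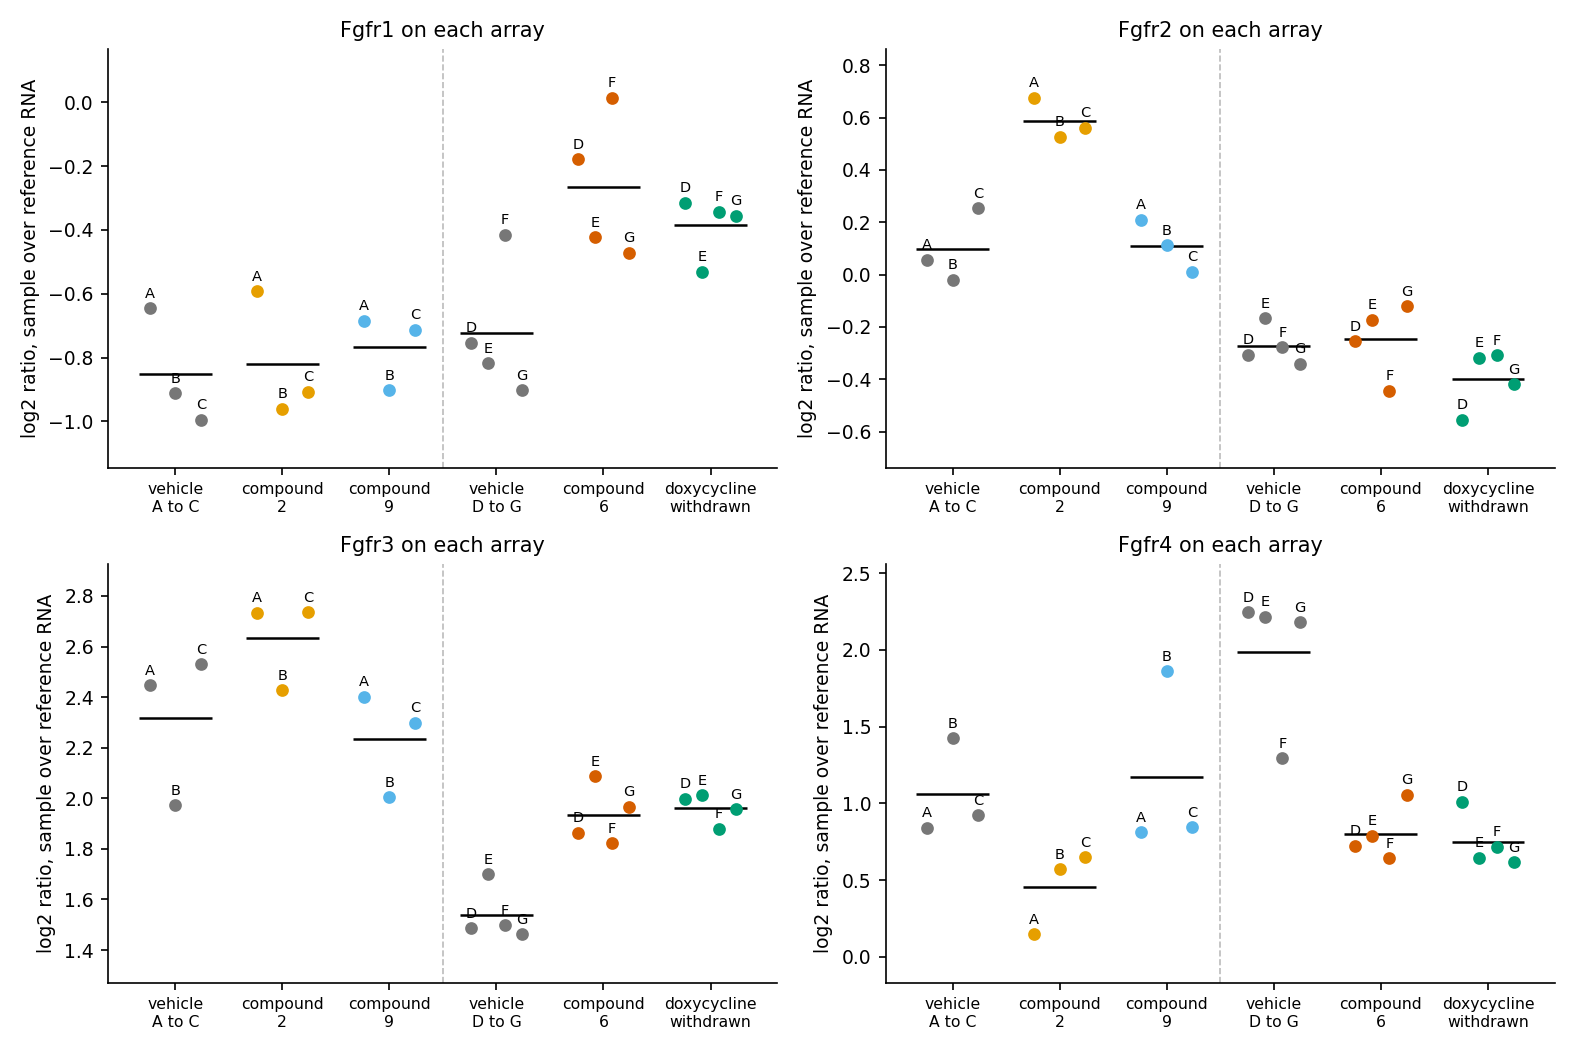
Log2 ratio over reference RNA (vertical axis) of the brightest probe of Fgfr1, Fgfr2, Fgfr3 and Fgfr4 on each array, by group, with letters and group means; the dashed line parts the letter sets. Vehicle F is the low vehicle array for Fgfr4 at 1.29 and the high one for Fgfr1 at -0.41.

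**Figure D4:**
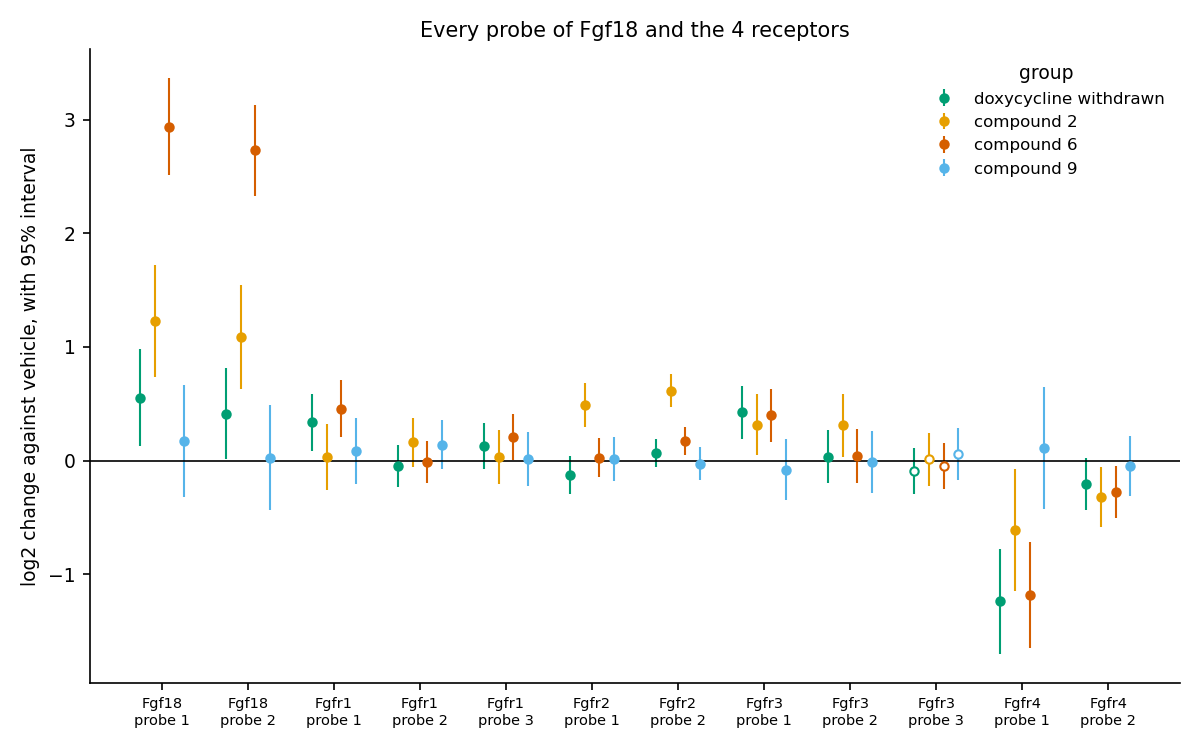
Log2 changes against vehicle (vertical axis, 95% intervals) for every probe of Fgf18 and the 4 receptors, with colours for the 4 groups; open points mark a probe above background on fewer than 3 arrays. The 2 Fgf18 probes give 2.94 and 2.73 with compound 6, while the 2 Fgfr4 probes give -1.18 and -0.27.

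Spry2, a Sprouty inhibitor of receptor signalling, did not pass in any comparison. It lay between 0.30 and 0.77 on the 7 vehicle arrays. Its change was -0.12 ± 0.10 after withdrawal, 0.18 ± 0.12 with compound 2, -0.14 ± 0.10 with compound 6 and 0.01 ± 0.12 with compound 9.

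Compounds 2 and 9 were given to the same letters at the same dose and time and could be compared directly. Fgf18 was lower with compound 9 than with compound 2 by 1.05 ± 0.24 (interval of the difference -1.57 to -0.54, adjusted p = 0.0168), and Fgfr2 was lower by 0.48 ± 0.10 (adjusted p = 0.00631). Both differences had the same direction in 3 of 3 letters, and these were 2 of 8 members where 4.79% of all genes passed. The Fgf18 difference did not pass without compound 2 C (-0.81, adjusted p = 0.0968) or without compound 9 A (-0.90, adjusted p = 0.0841). Fgfr3 (-0.40, adjusted p = 0.0965) and Fgfr4 (0.72, adjusted p = 0.145) passed only with the letter as a replicate block (adjusted p = 9.51e-04 and 0.0195). For the other 4 members the difference ran from -0.18 to 0.05.

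For Fgf18, the change with compound 6 was larger than that with compound 2 by 1.71 (interval 1.03 to 2.39) and larger than that with compound 9 by 2.76 (interval 2.08 to 3.44), given as a description. Over the 25 alternative fits these differences ran from 1.43 to 2.57 and from 2.61 to 3.62. Of the 7 other measured members, 0 differed between compounds 6 and 2, where 0.566% of all genes passed (121 genes, or 1582 without vehicle F). Fgfr2 differed by -0.47 ± 0.13 (adjusted p = 0.0934, and 0.027 with the letter as a replicate block) and Fgfr1 by 0.43 ± 0.19 (adjusted p = 0.304, and 0.0351 with the block). Between compounds 6 and 9, 1 of the 7 passed, Fgfr4 at -1.29 ± 0.35 (adjusted p = 0.0353), where 6.53% of all genes passed. Over the 14 fits that each left out 1 array the value ran from -1.52 to -0.95 and did not pass in 9 of them. Fgfr3 at 0.48 and Fgfr1 at 0.37 did not pass there, but did with the block (adjusted p = 0.00187 and 0.0345). Fgfr3 also passed without vehicle B (0.65, adjusted p = 0.0227), and Fgfr1 with no set term (0.50, adjusted p = 0.00878). Fgfr4 differed between compounds 6 and 2 by -0.57 ± 0.35 (interval -1.31 to 0.16, adjusted p = 0.52) and Fgfr3 by 0.08 ± 0.17. The differences of Fgf9, Fgf15 and Spry2 ran from -0.33 to 0.20 over both comparisons, and none passed.

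Compound 6 and doxycycline withdrawal shared letters and differed in 0 of the 7 other measured members, where 15% of all genes passed, and with the letter as a replicate block in 1, Fgf9, given above. Fgfr4 (0.06, interval -0.43 to 0.54) and Fgfr3 (-0.03, interval -0.27 to 0.21) lay at like values in both groups. Fgf18 was higher with compound 6 by 2.39 (interval 1.94 to 2.83, a description), with 4 of 4 letters in this direction and no overlap.

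The rest of the pathway was taken from lists of 73 genes, of which 57 were measured. After withdrawal 7 rose and 7 fell; with compound 2, 5 rose and 1 fell; with compound 6, 9 rose and 11 fell; and with compound 9, 0 passed. As shares of the 57, these are 12.3% up and 12.3% down after withdrawal, 8.77% and 1.75% with compound 2, and 15.8% and 19.3% with compound 6. Over all genes the shares up and down were 7.3% and 13.4%, 3.31% and 1.98%, and 11.4% and 13.5%. The median change of the 57 was -0.03, 0.03, 0.03 and -0.01 in withdrawal and compounds 2, 6 and 9. With all letter F arrays left out the counts were 9 up and 7 down, 5 up and 3 down, and 7 up and 11 down. With the letter as a replicate block they were 11 up and 12 down, 8 up and 3 down, and 9 up and 16 down.

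Among 14 genes of ERK feedback and ERK targets, 5 rose and 3 fell with compound 6, and 1 rose and 3 fell after withdrawal. Of all genes, 11.4% rose and 13.5% fell with compound 6, and 7.3% rose and 13.4% fell after withdrawal. Etv4, an ETS factor induced by FGF signals, lay at -1.02, -1.11, -2.39 and -1.13 on vehicle D to G, with vehicle F apart, and at -2.59, -2.63, -2.61 and -2.68 after withdrawal. Vehicle A to C were also low, at -2.5, -2.7 and -2.6, so the falls given here are against vehicle D to G only. The compound 6 arrays lay at -2.39, -2.17, -2.06 and -2.30 and overlapped vehicle through letter F, where compound 6 was above its vehicle array, so 3 of 4 letters were lower. Etv4 fell by 1.22 ± 0.20 after withdrawal (adjusted p = 6.36e-04) and by 0.82 ± 0.20 with compound 6 (adjusted p = 0.00603). Without vehicle F the differences were -1.54 and -1.14. The second Etv4 probe, well above background on 21 arrays, gave smaller changes, -0.84 after withdrawal and -0.52 with compound 6. Il17rd, an inhibitor of FGF signalling at the receptor, was -1.15 to -1.30 on vehicle D to G, -1.86 to -1.99 after withdrawal and -1.51 to -1.87 with compound 6. It fell by 0.71 ± 0.08 (adjusted p = 6.51e-05) and 0.44 ± 0.08 (adjusted p = 0.00112). Neither group overlapped vehicle D to G, and none of these vehicle arrays stood apart. Vehicle A to C lay lower, at -2.51, -2.10 and -2.33.

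Dusp4, a phosphatase that switches off MAP kinases, moved otherwise. It lay at -1.42, -1.42, -0.67 and -1.13 on vehicle D to G, at -1.53, -1.54, -1.14 and -1.27 after withdrawal, and at -0.54, -0.24, 0.52 and -0.03 with compound 6. All compound 6 arrays were above all arrays of the other 2 groups. The rise with compound 6 was 1.09 ± 0.21 (adjusted p = 9.25e-04), or 1.25 without vehicle F, and the difference between compound 6 and withdrawal was 1.30 ± 0.21 (adjusted p = 3.38e-04), while the change after withdrawal was -0.21 ± 0.21. Spry1, the Sprouty relative of Spry2, rose by 0.49 ± 0.12 with compound 2 (adjusted p = 0.0173) and was lower with compound 9 than with compound 2 by 0.56 ± 0.12 (adjusted p = 0.00776). It also differed between compound 6 and withdrawal, by 0.49 ± 0.10 (adjusted p = 0.00293). Dusp5, an ERK phosphatase, rose by 0.60 ± 0.17 with compound 2 (adjusted p = 0.0413) and was lower with compound 9 by 0.69 ± 0.17 (adjusted p = 0.0203). Spred2, a further inhibitor of the cascade, differed between compound 6 and withdrawal by -0.44 ± 0.09 (adjusted p = 0.00323) and between compounds 6 and 9 by -0.50 ± 0.14 (adjusted p = 0.0408). Against vehicle D to G, compound 6 also changed Spry1 by 0.30 (adjusted p = 0.0363), Dusp5 by 0.40 (adjusted p = 0.0466) and Spred2 by -0.48 (adjusted p = 0.00117). Without vehicle F the Dusp5 change was 0.53 with compound 6 and 0.52 after withdrawal. Dusp6, of the same list, changed by 0.55 after withdrawal, 0.46 with compound 2 and 0.51 with compound 6, upward in every letter. With compound 9 its change was -0.04. Dusp6 lay at -1.34 on vehicle F, against -2.03, -2.12 and -1.98 on vehicle D, E and G. The withdrawn and the compound 6 arrays overlapped vehicle through that array. The Dusp6 changes are given as a description.

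Of 9 measured co-receptors and ligand carriers, 3 fell after withdrawal, 1 rose with compound 2, and 1 rose and 2 fell with compound 6. Of all genes, 13.4% fell after withdrawal, 3.31% rose with compound 2, and 11.4% rose and 13.5% fell with compound 6. Fgfrl1, an FGF receptor relative without a kinase domain, lay at 0.46, 0.42, -0.71 and 0.48 on vehicle D to G and at -0.88, -0.94, -1.64 and -0.73 with compound 6. Vehicle F was again the low array, and within each letter compound 6 was lower. It fell by 1.21 ± 0.22 with compound 6 (adjusted p = 7.64e-04) and by 0.80 ± 0.22 after withdrawal (adjusted p = 0.0169), with differences of -1.50 and -1.09 without vehicle F. With compound 2 the difference of -0.79 ± 0.26 did not pass in the main fit (adjusted p = 0.0846). It passed with the letter as a replicate block (adjusted p = 2.76e-04). Fgfbp1, which releases FGFs from the matrix, fell by 0.78 ± 0.17 after withdrawal (adjusted p = 0.00459), with a difference of -0.91 without vehicle F. Flrt3, a membrane protein that binds FGF receptors, rose by 0.52 ± 0.14 with compound 2 (adjusted p = 0.0316) and 0.63 ± 0.12 with compound 6 (adjusted p = 8.01e-04), and its other probes gave 0.33 and 0.38, and 0.28 and 0.53. Flrt3 was lower with compound 9 than with compound 2 by 0.64 ± 0.14 (adjusted p = 0.00908), differed by 0.75 ± 0.18 between compounds 6 and 9 (adjusted p = 0.0195), and by 0.48 ± 0.12 between compound 6 and withdrawal (adjusted p = 0.0086).

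Of 8 heparan sulfate enzymes, 3 rose after withdrawal, 2 with compound 2 and 1 with compound 6. Of all genes, 7.3% rose after withdrawal, 3.31% with compound 2 and 11.4% with compound 6. Ndst1, which modifies the chains that FGFs bind, rose by 0.53 ± 0.11 with compound 2 (adjusted p = 0.0058) on its brightest probe, and its other probes gave 0.19 and 0.01. It was lower with compound 9 than with compound 2 by 0.39 ± 0.11 (adjusted p = 0.0376). Of 18 receptor adaptors and cascade genes, 1 rose and 5 fell with compound 6, where 11.4% of all genes rose and 13.5% fell. Of 6 other measured FGF ligands, 1 was higher with compound 6 than with compound 9, where 3.86% of all genes were. This was Fgf23, the hormone of phosphate balance, which differed by 0.70 ± 0.13 (adjusted p = 0.00605) on 1 probe. Its second probe was above background on 0 arrays. Against vehicle, Fgf23 rose by 0.61 with compound 6 (adjusted p = 1e-04) and by 0.32 after withdrawal (adjusted p = 0.0159). Of all genes, 11.4% and 7.3% rose in these 2 comparisons. Il17rd differed between compounds 6 and 2 by -0.65 ± 0.13 (adjusted p = 0.0254) and between compounds 6 and 9 by -0.52 ± 0.13 (adjusted p = 0.0247).

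**Figure D5:**
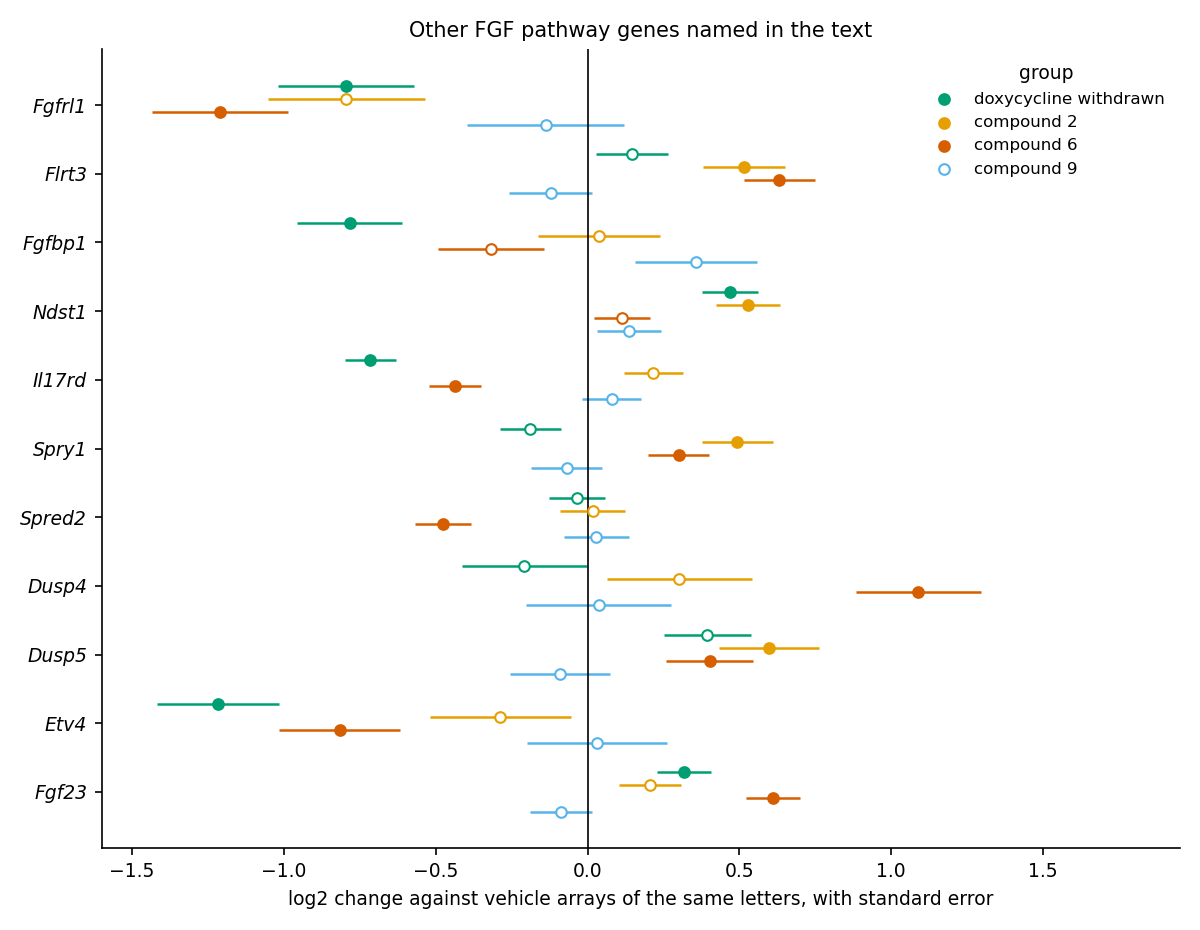
Log2 changes against vehicle arrays of the same letters (horizontal axis, bars of 1 SE) for the other FGF pathway genes named in the text except Dusp6, with colours for the 4 groups. Filled points passed at an adjusted p under 0.05 and open points did not. Dusp4 lies at 1.09 with compound 6 and at -0.21 after withdrawal, and Etv4 at -0.82 and -1.22.

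Some markers of other cell types passed with compound 6, where 11.4% of all genes rose and 13.5% fell. Of 8 measured fibroblast markers 4 rose, with Vim highest at 0.55 (adjusted p = 0.00144), and the summed intensity of the list above background was 2730 to 3079 with compound 6 and 2678 to 3213 on vehicle D to G. Of 11 measured leukocyte markers 6 rose and 1 fell, from Lcp1 at -0.97 to Csf1r at 1.05, with sums of 13352 to 17915 and 9690 to 15343. Of 4 measured markers each, 1 rose for smooth muscle, and 1 rose and 1 fell both for enteric neurons and glia and for endothelium. Their part in the changes of the FGF genes was not tested.

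Over all 21 arrays, after the mean of each letter set was subtracted, the 6 probes most like Fgf18 were those of Pgd (Pearson's r = 0.956), Runx1 (0.956), Abcc8 (0.952), a probe with no gene name (0.949), 1700056E22Rik (0.948) and Gclm (0.947). Pgd encodes an enzyme of the pentose phosphate pathway, Runx1 a runt-domain transcription factor, Abcc8 a subunit of ATP-sensitive potassium channels and Gclm a subunit of the enzyme that starts glutathione synthesis. Runx1 was higher by 3.08 with compound 6 and 1.06 with compound 2. The points are arrays that share letters, slides and treatments, so r is given as a description. For most of these probes the rank rests largely on the 4 compound 6 arrays. Over the 17 other arrays, 0 of the 6 stayed among the first 6, with 1700056E22Rik at rank 7 (0.923) and Gclm at rank 34 (0.892). The rest ran from 0.754 (Runx1) to 0.855 (Pgd), and the leading genes were Actn4 (0.937), Pgrmc2 (0.937) and Mia3 (0.933). Of the members, Fgfr4 was the one most opposed to Fgf18 (r = -0.56 over 21 arrays and -0.606 over 17), and Fgfr1 the one most like it over 21 arrays (0.538, and 0.255 over 17). Over the 17 arrays without compound 6, Fgfr2 (0.538) and Fgfr3 (0.522) were most like it.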

How the data were processed

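Total RNA of 21 organoid samples was labelled with Cy3 and hybridized with Cy5-labelled Universal Mouse Reference RNA, per the labels' protocols. Per the file headers, the deposited scanner files hold spot intensity from Agilent Feature Extraction 10.7.3.1, with a log10 ratio of red over green, flags for each spot and probe coordinates of mm9; the deposited value table holds log2 ratios of sample over reference (r of at least 0.995 with the turned scanner ratio). Members and lists were chosen with earlier results of these data known.

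Of 62976 spots, 3671 controls were left out and 157 non-uniform spots set to missing; 0 were saturated. Intensities were corrected with normexp (offset 50), normalized by loess within arrays (limma 3.58.1, R 4.3.3) and averaged per probe. The sample channel had to be well above background on 3 or more arrays, which left 29628 of 55681 probes, and the brightest probe stood for each of 21370 genes (5767 had more than 1). limma with group and letter set as terms gave moderated changes, with 15 residual degrees of freedom. Array number limits precision. Same-letter arrays deviated together (correlation 0.209 to 0.749 over 21 pairs, median 0.528, against -0.179 for 54 pairs of other letters). Arrays were centred on their group means first, so these medians are not independent of each other. The letters, shared across groups in the titles, were taken as pairing in the fit with the letter as a block. The main fit holds no term for the single letter, so its calls and counts ignore this pairing. Named genes were every member probe, at most 4 passing genes of the other FGF lists per comparison with the largest change, and the 6 genes most like Fgf18. Nr1h4, Ostb, Axin2, Lgr5, Ctnnb1, Dusp6 and the cell type markers were named outside that rule after their values were seen. The alternatives were the letter as a block, Agilent's log ratio, Cy3 alone, the value table, other filters, probe averaging, no set term, fewer arrays, slide as a random block and each array left out; the values of other named genes without vehicle F were added after seeing the data.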

Additional observations from a re-analysis of the deposited data

Results flagged for a closer look

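In 24 combinations of a member and a group of 4 arrays, 2 held an array far from the other 3 by Dixon's test at the 95% level, and chance flags about 1 in 20 groups. Fgfr4 on vehicle F was 1.29, where the other vehicle D to G arrays ran from 2.18 to 2.24. Fgfr3 on vehicle E was 1.70, where the other vehicle arrays of its set ran from 1.46 to 1.50.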

How the results depend on the processing

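The 15 residual degrees of freedom and probes near background (Fgfr4, Fgf15, Fgf20, Spry4) limit what could be detected. With the letter as a replicate block, the members that passed numbered 4 in place of 2 for withdrawal, 4 in place of 2 for compound 2, and 4 in place of 2 between compounds 9 and 2. Leaving Fgf18 out, the block gave 2 in place of 0 between compounds 6 and 2, 3 in place of 1 between compounds 6 and 9, and 1 in place of 0 between compound 6 and withdrawal. With the mean over a gene's probes, 1 passed for withdrawal, 1 between compounds 6 and 2 and 0 between compounds 6 and 9. Without letter F, 4 passed for withdrawal. Agilent's log ratio, the deposited value table and a fit of only the arrays compared each gave 0 between compounds 6 and 9. With no set term the counts were 0 between compounds 9 and 2, 4 between compounds 6 and 2 and 2 between compounds 6 and 9, and Fgfr3 reversed to -0.70 between compounds 6 and 2 (0.08 with the term) and Fgfr2 to -0.36 between compounds 6 and 9 (0.01 with it). That setting also ended the calls between compounds 9 and 2 of Fgf18 (adjusted p = 0.151) and Fgfr2 (adjusted p = 0.103), and of Fgfr4 between compounds 6 and 9 (-0.37, adjusted p = 0.37). With each array left out in turn, the counts ran from 2 to 4 for withdrawal, 2 to 2 for compound 2, 2 to 3 for compound 6 besides Fgf18, 1 to 2 between compounds 9 and 2, 0 to 1 between compounds 6 and 2 and 0 to 2 between compounds 6 and 9. The 4 for withdrawal came without vehicle F, the 1 between compounds 9 and 2 without compound 2 C or compound 9 A, and the 1 between compounds 6 and 2 without compound 6 G or vehicle F. Between compounds 6 and 9 the 0 came without compound 6 D, E or F, compound 9 B, or vehicle A, C, D, E or G, and the 2 without vehicle B. The cause of these shifts was not tested.

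Over all genes, the block moved the count from 4419 to 8360 for withdrawal, 1130 to 3704 for compound 2, 5304 to 8817 for compound 6, 0 to 1 for compound 9, 1023 to 3395 between compounds 9 and 2, 121 to 1964 between compounds 6 and 2, 1395 to 4641 between compounds 6 and 9, and 3211 to 7284 between compound 6 and withdrawal. Without letter F these counts were 6829 for withdrawal, 2296 for compound 2, 4 for compound 9, 2073 between compounds 9 and 2, 1528 between compounds 6 and 2 and 3468 between compounds 6 and 9. In a fit of only the arrays compared they were 2103 for withdrawal, 656 for compound 2, 3080 for compound 6, 40 between compounds 6 and 2 and 497 between compounds 6 and 9. With no set term they were 2097 for withdrawal, 3626 for compound 2, 225 between compounds 9 and 2, 9084 between compounds 6 and 2, 8934 between compounds 6 and 9 and 1131 between compound 6 and withdrawal. Agilent's log ratio gave 36 between compounds 6 and 2 and 895 between compounds 6 and 9, and the deposited values gave 57 between compounds 6 and 2 and 3 for compound 9. With each array left out, the counts ran from 2411 (vehicle E) to 7384 (vehicle F) for withdrawal, from 543 (compound 2 A) to 893 for compound 2, from 3741 to 7333 for compound 6, from 497 (compound 2 A) to 821 between compounds 9 and 2, from 45 (vehicle A) to 1582 (vehicle F) between compounds 6 and 2, and from 747 (vehicle G) to 3623 (vehicle F) between compounds 6 and 9. Of the members' values under the alternatives, 1192 kept their direction and side of the threshold where called, 30 newly passed, 26 no longer passed, 2 reversed and 3 moved. The last were Fgf18 with no set term, at 3.30 with compound 6, 2.57 against compound 2 and 3.62 against compound 9. Among values never called, 74 changed sign.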
